A study of Drosophila melanogaster with 4 samples.

Results

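Broad domains of RNA polymerase II were examined on 3 large autosome arms, 2L, 3L and 3R, of Kc167, an embryo-derived cell line of Drosophila melanogaster. A domain was an enriched region of 8000 bp or more in the list that the authors deposited for all libraries together, named the series list below. This choice gave 355 domains among the 2958 enriched regions on these arms and the 5288 in the whole list. Polymerase had been captured from formaldehyde-fixed chromatin by chromatin immunoprecipitation and sequencing (ChIP-seq) with ab5408, an antibody to the heptapeptide repeats that form the tail of the polymerase's largest subunit. The cells were labelled female, of genotype se/e and of late embryonic stage, were untreated as far as the labels say, and all libraries came from this 1 line. There were 2 ChIP libraries, each with its own list of regions, and 2 input libraries, for which no list was used. The labels do not say if the replicates were grown as separate cultures, and their spread may be technical.

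RNA polymerase II transcribes the protein-coding genes and many non-coding ones. In many Drosophila genes it gathers just downstream of the start, where it pauses, and a narrow peak of polymerase is typical there. A broad region arises where polymerase is detected along the body of a transcribed gene or across close neighbours. The repeated tail of the largest subunit is phosphorylated differently at starts and in gene bodies, and an antibody to the repeat may see these forms unequally.

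The domains were chosen by their width in a list made from the same ChIP libraries that are compared below. Widths, scores and coverage of the domains are therefore given as a description, without tests, and their recovery in the replicates is not independent evidence. Positions refer to FlyBase release 5. No annotation of that release was at hand, so no gene is assigned to a domain and no sequence is shown. Each region carries 1 score from the authors, read as a log2 ratio because some of the scores that recur in a list lay apart by the log2 of a whole number. The sources used here give neither the terms of this ratio nor the depth of the libraries.

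The domains made up 12% of the enriched regions on the 3 arms but 35.7% of the enriched sequence, with a total of 4.51 Mb. They covered 5.98% of the arms. Arm 2L held 101 of them, 3L held 109 and 3R held 145, which is 4.39, 4.44 and 5.20 domains per Mb. The narrowest domain measured 8002 bp, the median one 10976 bp and the widest 39234 bp, and 28 exceeded 20 kb. Of these 28, 16 lay on 3R. The domains' scores in the series list ran from 0.42 to 3.19 with a median of 1.82, while narrower regions on the same arms ran from 0.0041 to 4.75 with a median of 1.14. Domains were thus neither the weakest nor the strongest regions of the arms. Width and score went together over all 2958 enriched regions, with a Spearman correlation of 0.57, and hardly so among the 355 domains, at 0.12. Regions are not independent replicates, and both values describe this list alone.

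The width threshold fell in a continuous run of values. The 3 domains just inside it measured 8002, 8005 and 8014 bp and lay on 3L from 21814048 to 21822049, on 2L from 4441822 to 4449826 and on 3R from 12065393 to 12073406. The 3 regions just outside it, all on 3R, measured 7977, 7971 and 7969 bp. All 6 were met by 1 region in each replicate. The replicates also crossed the threshold on their own. Replicate 1 had 258 regions of 8000 bp or more on the 3 arms, and all of them met a domain, and replicate 2 had 282, of which 281 did. The exception, on 3L from 16120392 to 16128624, was 8233 bp wide in replicate 2 and corresponded to a series region of 7934 bp.

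The 10 widest domains show both an unbroken and a broken form. Among them 6 lay on 3R, 3 on 3L and 1 on 2L. The widest, on 3R from 1095847 to 1135080, was met by 1 region in each replicate, with scores of 1.42 in replicate 1 and 1.55 in replicate 2. The next, also on 3R, from 7414159 to 7450329, was met by 1 region in each, with scores of 1.73 in both. Further unbroken domains of 3R began at 19114033 (27385 bp wide), 26590541 (25809 bp), 19835511 (24941 bp) and 24142573 (24857 bp), and 1 of 3L began at 3424057 (24820 bp). Their scores averaged over the replicates lay between 1.46 on 3L and 2.12 on 3R. The domain from 19835511 stood out among these in its end: the replicate regions stopped 1502 and 1458 bp before the end of the series region, so that 93.7% of it was covered in both.

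The other 3 of the 10 were broken in both replicates. On 3L, the domain from 19884534 to 19912422 was met by 2 regions in replicate 1, separated by only 1 bp, and by 3 in replicate 2. The domain on 3L from 16131446 to 16158854 was met by 3 regions in replicate 1, with a widest gap of 3236 bp, and by 2 in replicate 2, with a gap of 1367 bp. The domain on 2L from 177336 to 205026 was the most broken of all 355, with 6 regions in replicate 1 and 4 in replicate 2. It was also the third weakest, with a series score of 0.59. Its regions covered 73.4% of it in replicate 1, where the widest gap measured 4076 bp, and 94.9% in replicate 2, where no gap exceeded 431 bp. The scores of its pieces lay between 0.45 and 0.82 in replicate 1 and between 0.45 and 0.81 in replicate 2, so they were weak throughout in both libraries.

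**Figure D1:**
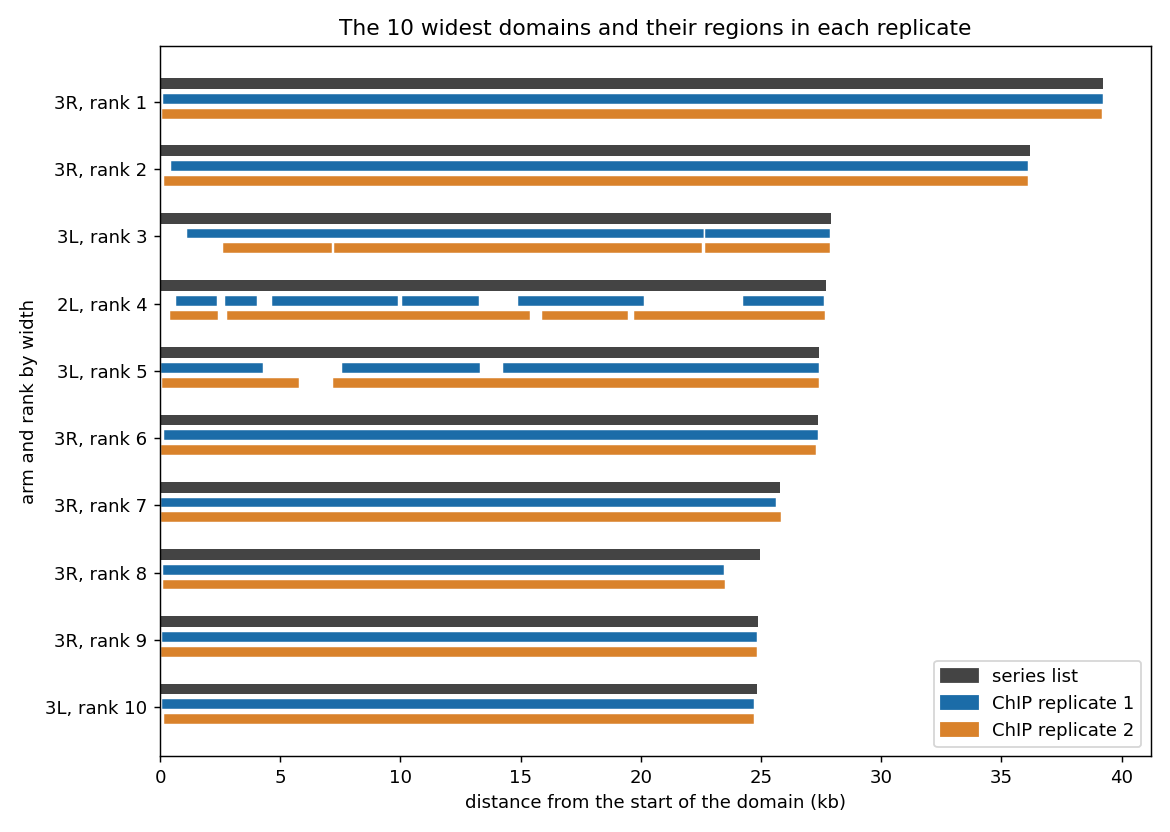
The 10 widest domains, each drawn from its own start (horizontal axis, kb), with the series region in grey and the regions of ChIP replicates 1 and 2 in blue and orange. The 7 unbroken domains show 1 bar per replicate, and the domain of rank 4, on 2L, shows 6 bars in replicate 1 and 4 in replicate 2.

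Every domain was met by at least 1 region in each replicate. Among all enriched series regions on the 3 arms, 86.7% were met in both replicates. Being met was not particular to the domains. Each replicate met 630 of the 631 series regions of 4 to 8 kb on these arms. It also met all 89 of 8000 bp or more on the X chromosome. In replicate 1, 506 regions met the 355 domains, and in replicate 2, 477 did. No region of either replicate met more than 1 domain. A single region met 233 domains in replicate 1 and 252 in replicate 2, a share of 68.3 ± 3.8% (SD, n = 2). A further 99 and 86 domains were met by 2 regions, 19 and 15 by 3, and 4 and 2 by 4 or more. The replicates gave the same number of regions at 266 domains, replicate 1 gave more at 56 and replicate 2 at 33. Both gave 1 region at 209 domains, or 58.9% of them, where the share over all enriched series regions on these arms was 78.8%. Both gave 2 or more at 79 domains, or 22.3%, against 3.58% over all. Splitting needs length, since the narrowest region called in a replicate measured 1301 bp, and the series list fixes which regions are wide, so these shares were not tested against each other.

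Splitting was seen in 25.0 ± 6.4% (SD, n = 2) of the 122 domains under 10 kb, in 30.1 ± 1.7% of the 83 from 10 to 12 kb and in 39.6 ± 2.6% of the 82 from 12 to 16 kb. The 40 domains from 16 to 20 kb were split in 33.8 ± 1.8% and the 28 of 20 kb or more in 39.3 ± 5.1%. Among the 3 widest classes the share did not follow the order of width. Series regions of 4 to 8 kb on the same arms, 631 in number, were split in 8.48 ± 1.0%. On the X chromosome, the 89 series regions of 8000 bp or more were split in 28.7 ± 7.2%, a value within the spread of the 31.7 ± 3.8% of the domains.

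**Figure D2:**
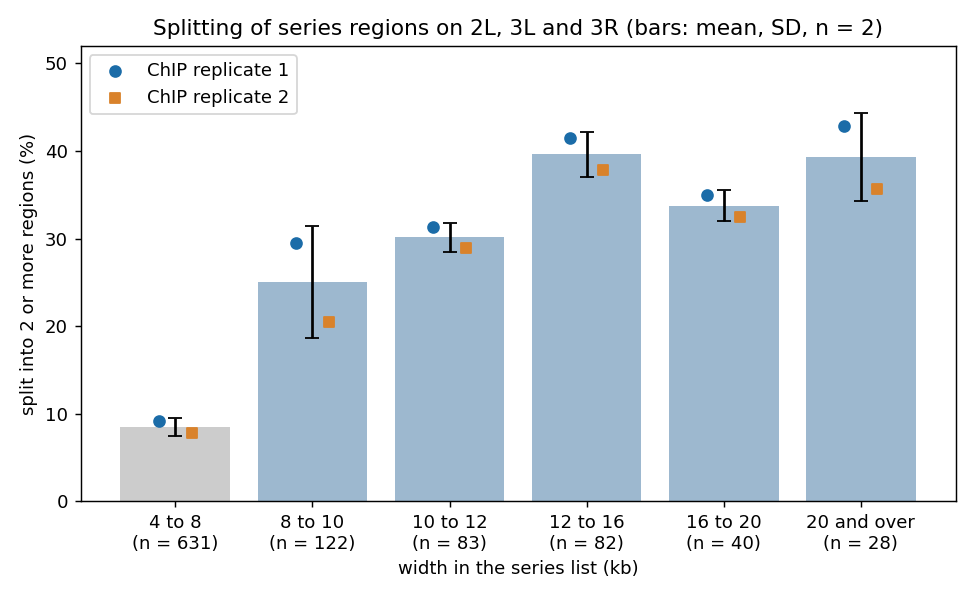
Share of series regions met by 2 or more replicate regions (vertical axis, %), by width in the series list (horizontal axis, kb). Bars give the mean and SD over the 2 replicates and points each replicate. The grey bar, for regions under the 8 kb threshold, stands at 8.48%, and the blue bars, for the domains, stand between 25.0% and 39.6%.

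Domains that stayed whole tended to score higher than those that broke. At the median, the 209 domains met by 1 region in both replicates scored 2.00 in the series list and were 10714 bp wide. The 79 split in both scored 1.60 and were 12187 bp wide, and the 67 split in 1 replicate alone scored 1.75 and were 11452 bp wide. The ranges overlapped widely, from 0.89 to 3.19 for whole domains and from 0.42 to 2.81 for those split in both. Sorted by series score into 4 classes of 88 or 89 domains, 47.2% of the weakest class were whole in replicate 1 and 64.0% in replicate 2, and 80.9% and 86.5% of the strongest. In the second class the shares were 60.7% and 57.3%, so that replicate 2 showed no increase from the weakest class to the second. The median widths of the classes ran from 10002 to 11972 bp.

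The breaks were short and fell partly at the same places. Replicate 1 had 151 gaps inside domains with a median of 476 bp, and replicate 2 had 122 with a median of 342 bp. Gaps under 100 bp numbered 20 and 24, and gaps over 2 kb numbered 12 and 3. The longest measured 4076 bp in replicate 1 and 2950 bp in replicate 2. In the 79 domains split in both replicates, 53 of the 103 gaps of replicate 1 had their midpoint within 500 bp of the midpoint of a gap in replicate 2, and 20 were more than 2 kb from any. Seen from replicate 2, 53 of 98 lay within 500 bp and 17 beyond 2 kb.

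The pieces of many split domains differed in score. The widest piece held a median of 60.0% of the domain in replicate 1 and 62.3% in replicate 2. Most split domains had 2 pieces, 99 in replicate 1 and 86 in replicate 2. Of 2 pieces the wider always holds the larger part of the covered length, so these medians do not show unequal widths. The highest-scoring piece exceeded the lowest by a median of 0.95 on the log2 scale in the 122 split domains of replicate 1 and by 0.97 in the 103 of replicate 2. That difference was above 1 in 58 and 50 of them. The domain on 3L from 22391675 to 22402067 is an example: its 4 pieces in replicate 1 scored from 0.39 to 3.11, and its 3 in replicate 2 from 0.42 to 3.01. On 3R, the domain from 12266242 to 12280619 was broken into 3 in both, scoring from 0.82 to 2.72 and from 0.82 to 2.59. Other domains broke into like pieces. That on 2L from 18637782 to 18658013 gave 4 in replicate 1, between 0.49 and 0.55, and 2 in replicate 2, at 0.56 each, and that on 3R from 23782191 to 23790281 gave 3 in each, between 0.86 and 1.30.

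The remaining domains with the most regions lay on 2L and 3L. On 3L, the domain from 7352022 to 7368274 was met by 4 and 3 regions and that from 16774964 to 16787526 by 2 and 4. On 2L, 3 domains were met by 3 regions in each replicate: those from 2036753 to 2046445, from 2971263 to 2989228 and from 22352419 to 22362535. The last of these combined pieces scoring 0.37 and 2.30 in replicate 1 and 0.47 and 2.30 in replicate 2 at the extremes.

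Coverage of the domains was nearly complete. Replicate 1 covered 4.23 Mb, or 93.8%, of the domain sequence and replicate 2 covered 4.30 Mb, or 95.3%. The median domain was covered over 97.8 ± 0.64% of its length (SD, n = 2), and the median narrower region of the same arms over 97.0 ± 0.37%. Both replicates covered 95% or more of 197 domains, or 55.5%, where 50.8% of all enriched series regions reached that level. An edge drawn in by the same length takes a larger share of a narrower region, so these shares do not set the domains apart. Coverage was higher in replicate 2 at 215 domains, higher in replicate 1 at 139 and equal at 1. The replicates lay within 5 percentage points of each other at 268 domains, and the ranks of coverage had a Spearman correlation of 0.63 across the domains, which share their libraries. Under 75% was covered in both replicates at 6 domains and in either at 25.

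Most of the uncovered sequence lay at the ends of domains. Of the 280 kb left uncovered by replicate 1, 60.5% lay outside its first and last region, and of the 212 kb left by replicate 2, 68.5% did. The typical edge was nonetheless placed almost identically. The first region began a median of 40 bp inside the start of the domain in replicate 1 and 34 bp in replicate 2, and it began within 100 bp of the domain's start at 238 and 244 domains. The last region ended within 100 bp of the domain's end at 232 and 247. An edge was drawn in by more than 1 kb at 54 domains in replicate 1 and at 39 in replicate 2. Replicate regions reached past a domain by at most 137 bp in replicate 1 and 207 bp in replicate 2.

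**Figure D3:**
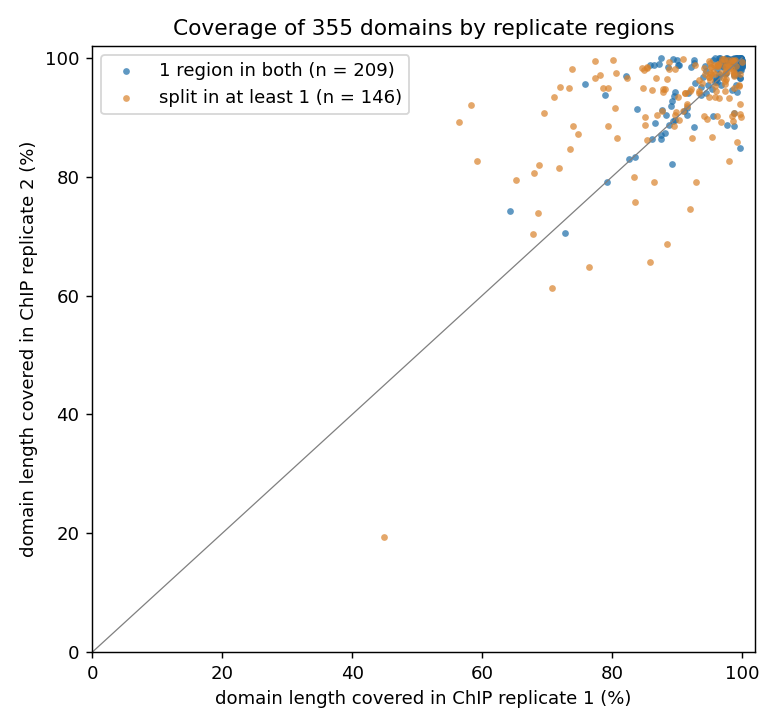
Share of each of the 355 domains covered by regions of ChIP replicate 1 (horizontal axis, %) and replicate 2 (vertical axis, %); the grey line marks equal coverage. Most points sit in the upper right corner, domains met by 1 region in both (blue) above all, and 1 split domain lies far below the rest, at 45.0% and 19.3%.

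The least covered domains were led by a neighbouring pair near the centromere end of 2L. The domain from 21515867 to 21532398 was covered over 45.0% in replicate 1, by 3 regions, and over 19.3% in replicate 2, by 2. The places differed for the most part. Replicate 1 had pieces from 21520712 to 21522711, from 21525852 to 21527534 and from 21528645 to 21532396. Those of replicate 2 ran from 21523970 to 21525800 and from 21527188 to 21528549, and only the second piece of each replicate overlapped one of the other. The adjoining domain from 21536571 to 21546267 was covered over 70.8% and 61.3%, by 2 regions in each. One piece of each replicate there scored 3.23 and 3.68, and the other 0.99 and 0.89, while the series score of the whole domain was 1.30.

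A row of evenly spaced, narrower regions lay before both domains. Whether the spacing went on inside the domains was not examined. In the 100 kb before the first of them, 8 of the 14 series regions that follow another there began 4800 to 5200 bp after the start of the region before, a window chosen after the values were seen, and their spacing ran from 4875 to 5057 bp. The corresponding spacing was 4888 to 5060 bp for 5 regions of replicate 1 and 5035 to 5058 bp for 4 of replicate 2. The last series region of the row's stretch ended 8086 bp before the domain, whereas the last replicate regions ended 35213 and 35217 bp before it. Even spacing is typical of sequence repeated in tandem; how reads were placed there is not given in the sources used here, and its part in the low coverage was not tested.

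Other poorly covered domains were 2L from 15738843 to 15749108, covered over 67.8% and 70.4%, and 3R from 12908358 to 12918818, covered over 64.4% and 74.2% by 1 region in each. On 2L from 2574033 to 2583385, 76.5% was covered by 2 regions in replicate 1 and 64.7% by 1 in replicate 2. The domain on 3R lost 2828 and 2561 bp at its end in replicates 1 and 2, so that both libraries ended the region early.

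Scores of the domains were close in the replicates. Each domain was scored in a replicate by the mean of its regions, weighted by the length of domain they covered. Over the domains this score had a median of 1.82 in replicate 1 and 1.83 in replicate 2. Replicate 2 was higher at 220 domains and lower at 135, with a median difference of 0.03 and an SD of 0.11 over domains. The authors' scaling is not known, so this difference does not compare the level of polymerase between the libraries. The replicates lay within 0.25 of each other at 341 domains, which was 209 of 209 met by 1 region in both and 132 of the 146 others. Ranks of score had a Spearman correlation of 0.97 across the 355 domains.

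The 5 strongest domains were whole in both replicates with 1 exception. The highest series score, 3.19, belonged to 3R from 7039117 to 7052185, which scored 3.20 in replicate 1 and 3.18 in replicate 2. The domain of 2L at 867388 to 875881 came next, scoring 3.17 and 3.20. Then came that of 3L at 3191331 to 3200807, scoring 3.15 and 3.20, and that of 2L at 2744385 to 2761344, scoring 3.10 and 3.16. The fifth, on 2L from 471106 to 482292, was 1 region scoring 3.10 in replicate 1 and was divided in replicate 2 by an 81 bp gap into pieces scoring 1.42 and 3.34.

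The 5 weakest domains were broken in both replicates. The lowest series score, 0.42, was that of 3L from 19058717 to 19067191, which scored 0.45 in replicate 1 and 0.47 in replicate 2 and was covered over 59.3% and 82.6%. Next came 2L from 18637782 and 2L from 177336, described above, then 3R from 19028222 to 19041585 with 0.82 and 0.76 and 3L from 1773999 to 1784000 with 0.81 and 0.76. Replicate 2 covered more of each of the 5 than replicate 1.

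The widest disagreements in score came with a different division of the domain. The largest was that of 2L from 21515867, after the evenly spaced row, at 1.22 in replicate 1 and 2.13 in replicate 2. It was followed by 3L from 3321256 to 3330773, with 1.98 from 2 regions and 2.62 from 1. On 2L, the domain from 16317172 to 16329975 scored 1.82 from 2 regions and 2.24 from 1, and on 3L that from 6945729 to 6958968 scored 1.79 from 2 and 2.17 from 1. On 3L from 3321256, replicate 2 had no region at the place of the weak one of replicate 1, which scored 0.47, and began 3170 bp inside the domain. In the other 2, the single region of replicate 2 spanned both a weaker and a stronger region of replicate 1, which scored 0.59 and 2.81 on 2L and 1.29 and 2.83 on 3L. Averaged before taking the log instead, a setting added after the data were seen, replicate 1 scored 2.19 on 2L and 1.99 on 3L, and 352 of the 355 domains lay within 0.25 of each other. The domain of 2L from 21515867 then differed more, at 1.22 and 2.71. That of 3L from 3321256 stayed apart, at 2.21 and 2.62. Replicate 1 covered 85.9% of the latter and replicate 2 covered 65.6%, so its 2 scores do not describe the same sequence.

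**Figure D4:**
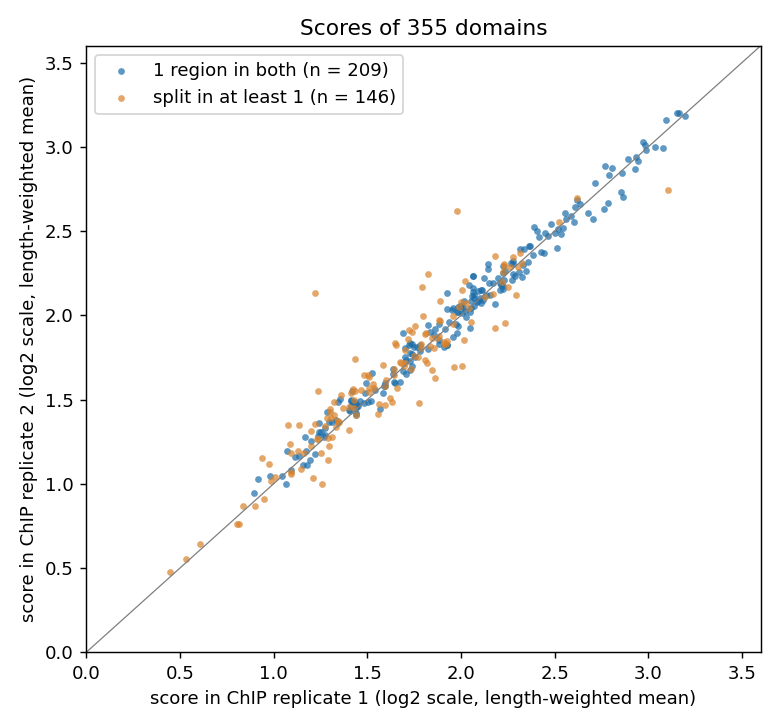
Length-weighted mean score of each of the 355 domains in ChIP replicate 1 (horizontal axis, log2 scale) and replicate 2 (vertical axis, log2 scale); the grey line marks equal scores. Domains met by 1 region in both (blue) lie within 0.25 of the line, and the points farthest from it are split in at least 1 replicate (orange).

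Along 2L and 3L, domains were most numerous at the telomere end, on 3L jointly with 1 other part, whereas on 3R other parts held more. The 10% of each arm nearest the telomere held 18 of the 101 domains of 2L, 17 of the 109 of 3L and 15 of the 145 of 3R, and the 10% nearest the centromere held 11, 4 and 10. Together these were 50 and 25 of the 355 domains. Pooled over the arms, domains made up 16.4% of the enriched regions at the telomere end and 8.80% at the centromere end. Between these ends the share ran from 10.3% to 13.8%. Regions of 8000 bp or more were also counted in the replicates themselves, again over the 3 arms together. They were 13.0 ± 1.8% (SD, n = 2) of the regions at the telomere end. On all the rest of the arms, the centromere end included, they were 9.04 ± 0.55%, and at the centromere end alone 6.32 ± 0.34%. The replicates enter the series list, so this is no independent evidence. In the series list the arms were not alike. On 3R the share at the telomere end, 14.7%, was below that of 4 other parts, which ran from 15.1% to 16.2%, and its 15 domains were 10.3% of those of the arm. On 3L the share was 5.26% at the centromere end. On 2L it was 10.5% there, with the pair after the evenly spaced row among its 11 domains.

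By arm, domains were 11.5% of the enriched regions on 2L, 10.9% on 3L and 13.4% on 3R. Regions of 8000 bp or more made up 8.68 ± 1.03% (SD, n = 2) of the replicate regions of 2L, 8.93 ± 0.57% of those of 3L and 10.6 ± 0.49% of those of 3R. Arm 3R lay above the others in both replicates, and 2L and 3L differed by less than their spread. The order was not tested.

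**Figure D5:**
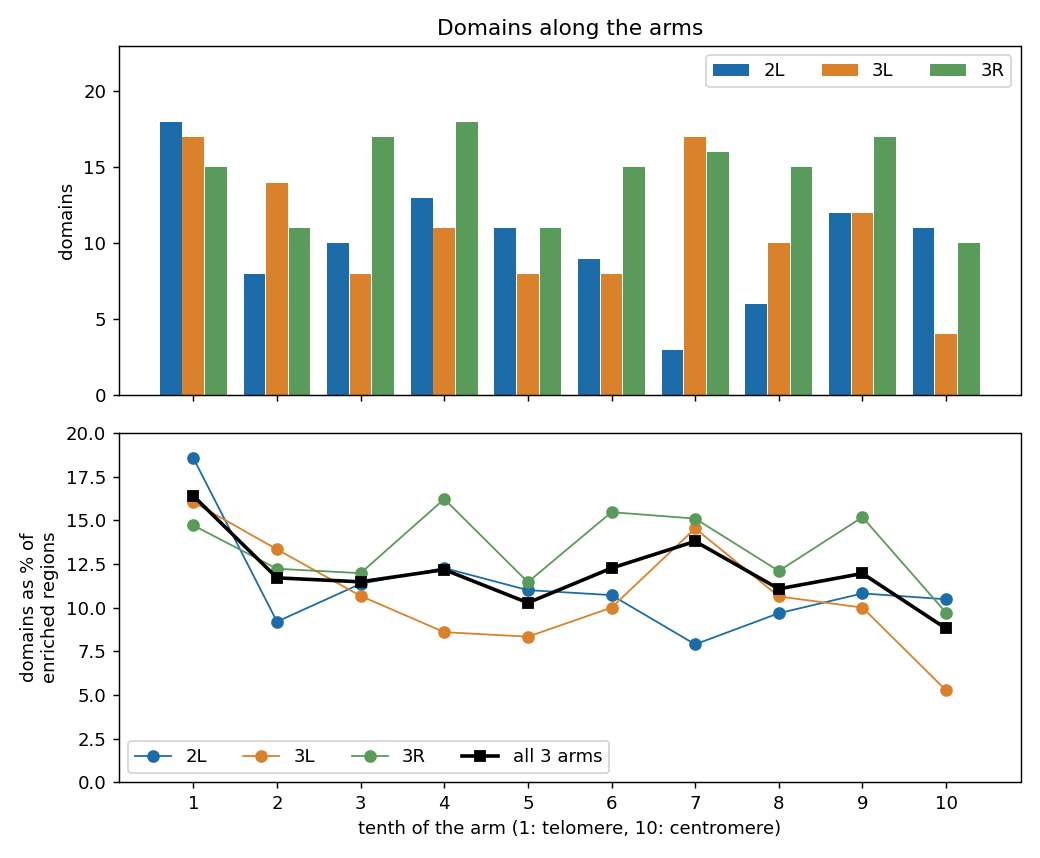
Number of domains (upper panel) and domains as a share of enriched series regions (lower panel, %) in 10 equal parts of each arm, from the telomere (1) to the centromere (10). Over all 3 arms (black) the share is highest in part 1, at 16.4%, and lowest in part 10, at 8.80%.

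Domains were also counted in bins of 1 Mb. The median over 74 whole bins was 5 domains, and the fullest 8 of all 77 bins held 76, or 21.4%. The same 8 bins held 377, or 12.7%, of all enriched series regions on the 3 arms. These bins were picked by their domain count, so a share above an even one follows from the choice. The fullest was 3R from 19000001 to 20000000, with 13 domains among 45 enriched regions, which took up 20.8% of its sequence. In that bin replicate 1 had 47 regions, 10 of them 8000 bp or wider, and replicate 2 had 48, with 11 of that width. It was followed by 3R from 5000001 to 6000000, with 10 domains among 59 enriched regions. Then came 5 bins with 9 domains each: the first Mb of 2L, the first Mb of 3L, 2L from 2000001 to 3000000, 3L from 3000001 to 4000000 and 3R from 8000001 to 9000000. The last of these had few regions in all, 36, of which 25.0% were domains. In these 5 bins, regions of 8000 bp or more were 8.8% to 24.2% of the regions of replicate 1. In replicate 2 they were 10.4% to 20.6%. Over all 3 arms such regions were 8.97% of the regions of replicate 1 and 9.93% of those of replicate 2. The first Mb of 2L lay below this in replicate 1, at 8.77%, and above it in replicate 2, at 13.2%. The bin of 3R from 5000001 lay near it in both, at 9.23% in replicate 1 and 9.84% in replicate 2. Arm 3R as a whole stood higher than this bin, at 10.2% and 10.9%, so the replicates did not set the bin apart. The other bins named here lay above the share over all 3 arms in both replicates. Domains were more frequent where enriched regions were, with a Spearman correlation over whole bins of 0.66, and the 2 counts share regions.

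Domains often had another close by. The distance to the nearest other domain, edge to edge, had a median of 35.5 kb, and 200 of the 355 (56.3%) had one within 50 kb. Of enriched regions of any width, 97.8% had another enriched region within that distance, so nearness to some region is the rule on these arms. The nearest enriched region of any width lay at a median of 1575 bp from a domain, against 2638 bp from a narrower region. Linked at 50 kb, the domains formed 78 groups of 2 or more, and 155 stood alone. At least 4 members were found in 10 groups, which held 45 domains.

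The longest group, of 6 domains, lay in the fullest bin, on 3R from 19009678 to 19187243. Domains made up 58.7% of that stretch of 178 kb. Its members differed in score. From the first to the last, the means over the replicates were 2.39 ± 0.03, 0.79 ± 0.04, 0.89 ± 0.02, 2.00 ± 0.03, 1.28 ± 0.02 and 2.29 ± 0.03 (SD, n = 2), and each neighbour differed from the next by more than these SDs. The fourth is the 27385 bp domain ranked sixth by width, and the second is among the 5 weakest of all. Each replicate gave 8 regions in the group. Another group, of 5 domains in the same bin, spanned 19747356 to 19888331. The other groups of 5 also lay on 3R, from 5321882 to 5464273 and from 25817669 to 25941347.

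Some neighbours nearly touched and yet stayed apart in every list. In the series list 14 pairs of domains were less than 1 kb from each other. The closest pair, the first and second domain of the longest group, was separated by 7 bp, with scores of 2.38 and 0.71. In the replicates the gap between the same 2 was 2936 bp and 1467 bp, and the weaker domain began later there. In contrast, the pair on 3R from 19747356 to 19758463 and from 19758595 to 19769907, with like scores of 2.02 and 2.21, was separated by 131 bp in the series list, 153 bp in replicate 1 and 260 bp in replicate 2. The scores of the 14 pairs differed by 0.16 to 1.67 with a median of 0.72, against a median of 0.54 for the 338 pairs of successive domains farther apart.

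Long stretches had enriched regions but no domain. Between successive domains, 7 stretches exceeded 1 Mb, and 5 of these lay on 2L. The longest, of 1832 kb, ran from 13906857 to 15738842 on 2L and held 29 enriched series regions, the widest of 7520 bp, with 29 regions in replicate 1 and 27 in replicate 2. The next, of 1788 kb, ran from 16828613 to 18616188 on 2L and held 34. On 3L the longest between successive domains ran from 9968879 to 11189406, over 1221 kb with 37 enriched regions. The ends of the arms were not counted. The last domain of 3L ended at 23097873, and the uncounted stretch from there to the arm's end at 24543557 was longer. The stretch of 1064 kb on 3R from 1835346 to 2898923 was the emptiest of the 7, with 13 enriched regions. It ended at the most isolated domain, from 2898924 to 2917335, whose nearest neighbour was 814 kb away and whose series score was 3.00. Of the 55 regions on these arms that the authors typed as depleted, 3 lay within 10 kb of a domain, the nearest at 1115 bp, and the replicates had 0 inside a domain. These counts were not set against those for narrower regions.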

How the data were processed

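The data were 3 lists of regions from ChIP-seq of RNA polymerase II in Kc167 cells: 1 for each of 2 ChIP replicates and 1 for the whole series. Per the labels' protocols, cells were fixed in 1.8% formaldehyde for 10 min and the antibody was incubated for 15 hours. Bowtie 0.12.7 is named per the submitters' processing notes. Not given in the sources used here are the caller, its threshold, the control and how the series list combined the libraries. The build is FlyBase release 5, per the file headers. The deposited score of a region was read as log2: among pairs of repeated scores, 16 of 2926 in the series list, 7 of 4095 in replicate 1 and 4 of 2346 in replicate 2 lay apart by log2 of an integer between 3 and 10 (powers of 2 left out, tolerance 1e-06), and 0 did on the natural-log or log10 scale.

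Domains were enriched regions of the series list on 2L, 3L and 3R of at least 8000 bp. Replicate regions met a domain when they overlapped it by at least 1 bp. Domains and all settings were chosen with earlier results of these data known. Named regions were the 10 widest domains, the 5 with the most regions, lowest coverage, highest and lowest series score and largest score difference (ties kept), those next to the threshold, the fullest bins and the longest group; other named regions were chosen after their values were seen. No region was filtered, and all 355 domains have values. No test was run, because every measure comes from the libraries behind the choice. The lists hold no counts, so depth and its precision are unknown. Intervals in the closing section are exact binomial and cover counting error only. They treat domains as independent, which neighbours on an arm are not, and for bins picked by their count they serve only as a yardstick. The overlap code was tested on simulated domains. The software was Python 3.11.15 with pandas 2.3.3, numpy 2.4.6, matplotlib 3.10.9 and scipy 1.17.1.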

Additional observations from a re-analysis of the deposited data

How the results depend on the processing

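Of 26 alternative settings, 14 moved a value by no more than the SD between replicates or, for positions, stayed within its exact 95% interval. The 14 include the settings that left out 1 replicate. Their outcome was fixed in advance, since with 2 replicates such a setting always moves the mean by less than the SD. The median coverage of domains (97.8%) was 95.05% when only replicate regions reaching their list's median score were used. The share of domains met by 1 region (68.3%) was 75.2% with a width of 6000 bp or more, 78.2% with regions reaching that score and 84.2% when regions under 500 bp apart were joined, which removes short gaps by construction; it was 64.8% at 10000 bp or more. The median score (1.83) was 1.95 with the highest region in place of the mean, 1.87 when averaged before taking the log (added after the data were seen), 1.87 at 10000 bp or more (233 domains) and 1.79 at 6000 bp or more (561 domains). The share of domains with another within 50 kb (56.3%, 95% interval 51.0 to 61.6) was 40.8% at 20 kb, 73.0% at 100 kb, 44.6% for 10000 bp or more and 71.1% for 6000 bp or more; fewer or more domains change the distance between them. The share in the fullest bins (21.4%, 95% interval 17.3 to 26.05) ranged from 18.3% with bins of 2 Mb to 25.8% at 10000 bp or more. Leaving out each replicate in turn gave 97.4% to 98.3%, 65.6% to 71.0% and 1.82 to 1.83 for coverage, share met by 1 region and score. No paired analysis was possible because only ChIP libraries have lists, and the inputs that carry the same numbers were not analysed. The depth is unknown, so its part in the splitting of domains could not be examined.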
